A study of Caenorhabditis elegans with 3 samples.

Results

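Transcripts of young adult worms after 24 h with multiwall carbon nanotubes were compared with those of unexposed worms at 0 h, over every gene that the arrays measured well enough. The animals were hermaphrodites of the nematode Caenorhabditis elegans, strain N2, genotype wildtype, and were about 3 days old at the start. They came from age-synchronized cultures grown on agar with the OP50 strain of Escherichia coli. The 24 h group was kept at 20 °C in K-medium, a solution of potassium and sodium chloride, with nanotubes at 1 mg/L, and the 0 h group had no treatment. A 4 h group with the same dose is the only other sample of the series, and its values are given beside the others. Each group is 1 Affymetrix array of total RNA, so there is no replicate, no test and no p-value in what follows. Of 17138 genes with a probe set of their own, 8634 had a mean level at or above the median of all probe sets and were analysed, each by its brightest probe set. No array of worms kept in K-medium without nanotubes is in the series, so exposure, time in the medium and age cannot be told apart, and neither can fewer cells of a type and less RNA per cell.

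Adult hermaphrodites of this species make sperm first and oocytes later, fertilise the oocytes with the stored sperm, and carry the early embryos in the uterus. The intestine does most of the work of digestion, fat storage and yolk production and expresses many enzymes that modify foreign compounds. The epidermis secretes the collagen cuticle, which is replaced at each larval moult and not in the adult. Multiwall carbon nanotubes are hollow fibres of nested carbon sheets. They are studied in worms as a material that animals may take up from water.

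A ratio below is the difference of log2(intensity + 32) between 24 h and 0 h, and "higher" or "lower" means by 2-fold or more, that is a log2 ratio of at least 1 or at most -1. Adding 32 understates the change of dim genes. By this rule 459 of the 8634 genes (5.32%) were higher and 687 (7.96%) were lower, together 13.3%, and these are the shares against which each gene list is read. The ratios nearest the threshold were 1.0006 inside and 0.9999 outside on the higher side. Past 4-fold there were 62 higher and 214 lower genes, and past 8-fold 17 and 51. At 3-fold the shares were 1.55% higher and 3.69% lower, and at 1.5-fold 14.4% and 17.3%. The median ratio was 0.00, and ratios at the 10th and 90th percentile were -0.89 and 0.73.

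The median intensity was 101.8 at 0 h and 102.8 at 24 h. Controls for transcripts that worms lack reached at most 67.8, which serves as a floor. Where 1 of the 2 values lay under that floor, the ratio is given as "at least" a fold against it, which holds for 33 of the higher and 85 of the lower genes. The bacterial hybridisation controls, RNAs added in the same amount to each array, had a mean log2 ratio of -0.60 (SD 0.23, 9 probe sets). Poly-A control RNAs, which are added before labelling, decreased by 1.00 on the log2 scale (SD 0.18, 12 probe sets). Scaling on the hybridisation controls moved the median of all genes to 0.61 and the counts to 1896 higher and 318 lower, 85.6% of calls higher against 40.1% as deposited. Scaling on the poly-A controls, tried after the data were seen, gave a median of 1.11 with 5247 higher and 213 lower genes (96.1% of calls higher). Directions below are thus set against the bulk of genes, and a list whose median lies between about -0.6 and 0 turns above 0 under the first scaling, or between about -1 and 0 under the second. The ratio of 5' to 3' signal of the worm control transcripts was higher at 24 h in 4 of 4 (median log2 change 0.56), and its part in any result was not tested.

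**Figure D1:**
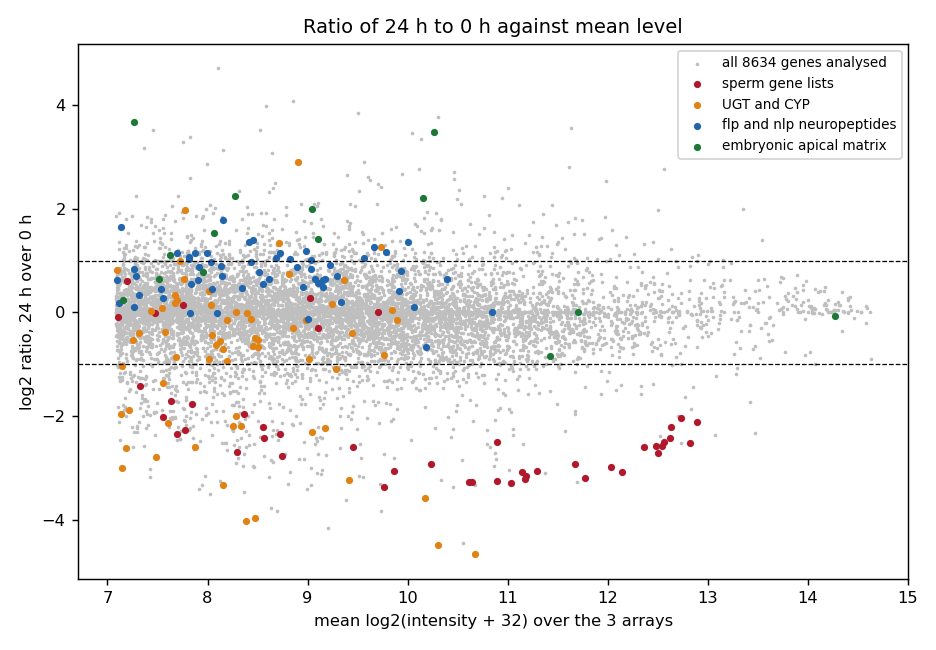
Log2 ratio of 24 h over 0 h (vertical) against mean log2(intensity + 32) over the 3 arrays (horizontal), 1 point per gene, 1 array per time, with dashed lines at 2-fold. Most genes of the sperm lists lie below the lower line, most neuropeptide genes lie above 0, and the embryonic apical matrix genes reach log2 ratios of 3.48 and 3.68.

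Genes of sperm were mostly lower at 24 h, while those of oocytes, eggshell and meiosis mostly stayed within 2-fold of their 0 h level. Major sperm protein forms the filaments that move crawling sperm, and its 23 genes analysed were all lower, from -2.05 to -3.30. Also lower were 11 of 18 other sperm genes analysed of 42 on the array, with 0 higher, and 5 of 5 nematode-specific peptide genes of groups c to f, among them nspd-2 at 2220.3 at 0 h, 1314 at 4 h and 186 at 24 h (log2 ratio -3.37). The brightest major sperm protein probe sets are all of a kind that can hybridise with near-identical copies, so their number does not count independent measurements. The gene msp-32 also has a probe set not of that kind, with a ratio of -1.22 against -2.50 in its brightest.

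Among the other sperm genes, ssp-34 was at 988 at 0 h, 483 at 4 h and 118 at 24 h (log2 ratio -2.77), and ssp-31 at 415 at 0 h, 219 at 4 h and 61.1 at 24 h, at least 4.48-fold lower at 24 h than at 0 h. The gene gsp-3, for a sperm-enriched protein phosphatase, was at 714 at 0 h, 495 at 4 h and 107 at 24 h (log2 ratio -2.42). The spe genes, named for defective spermatogenesis, were split. The genes spe-18 and spe-11 were lower, spe-18 at 381 at 0 h and 88.7 at 24 h (log2 ratio -1.78) and spe-11, whose protein sperm bring into the egg, at 219.7 at 0 h and 61.5 at 24 h, at least 2.52-fold lower. Near 0 lay spe-48 (-0.30), spe-41 (-0.10), spe-15 (-0.01), spe-5 (0.14) and spe-39 (0.29), and spe-44, a regulator that acts early in sperm formation, was at 85.3 at 0 h and 146 at 24 h (log2 ratio 0.60).

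Lower genes of other lists included some that act in sperm. The gene msd-4, for a short protein with a major sperm protein domain, was at 3524 at 0 h and 311 at 24 h (log2 ratio -3.38). The histone variant gene htas-1 was at 477 at 0 h and 49.2 at 24 h, at least 5.09-fold lower, the lower member of 27 core histone genes, where his-71 was higher (1.04). The Argonaute gene alg-4, which acts in sperm formation, was at 353 at 0 h and 74.7 at 24 h (log2 ratio -1.85). It was the lowest of 3 lower genes among 49 of small RNA pathways, with 0 higher. The others were rrf-1 (-1.11) and alg-5 (-1.04), for which other probe sets gave -0.01 and -0.14. The cytochrome c gene cyc-2.2 was at 734 at 0 h and 35.5 at 24 h, at least 7.68-fold lower.

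Of 16 eggshell and oocyte surface genes, 0 were higher and 0 lower (median 0.07). The chitin synthase gene chs-1, whose product makes the chitin of the eggshell, was at 1248 at 0 h and 1147 at 24 h (log2 ratio -0.12), and the yolk receptor gene rme-2 at 1770.4 at 0 h and 2352 at 24 h (log2 ratio 0.40). The chondroitin proteoglycan genes cpg-1 (0.23) and cpg-2 (-0.25), for eggshell layers, lay near 0, whereas cpg-9 was at 2580.3 at 0 h, 499.5 at 4 h and 114 at 24 h (log2 ratio -4.16). It was the only gene past 2-fold among the 7 cpg genes analysed of 12. Of 24 meiosis genes 1 was lower, lab-1 (-1.12), and of 41 cell division genes 2 were lower, zyg-1 (-1.26) and plk-2 (-1.04), with 0 higher. The other probe sets of zyg-1 and plk-2 had ratios of -0.33 and 0.21. The maternal RNA-binding list had 3 of 29 lower, among them skn-1, a transcription factor of the early embryo and of stress responses (-1.32).

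Of 14 genes analysed for the outer matrix of the embryo and for hatching, of 21 on the array, 8 were higher, 0 lower and 6 within 2-fold (median 1.26). The lipocalin gene lpr-3, whose product is part of the matrix that precedes the cuticle, was at 364 at 0 h, 370.5 at 4 h and 1024 at 24 h (log2 ratio 1.42). The hatching protease gene hch-1 was at 99.7 at 0 h, 326 at 4 h and 592 at 24 h (log2 ratio 2.24), and sym-1, for a secreted leucine-rich repeat protein of the embryo, at 97.3 at 0 h, 182 at 4 h and 247 at 24 h (log2 ratio 1.11). The zona pellucida domain genes noah-1 and noah-2 were at 450.0 at 0 h, 1344 at 4 h and 2199 at 24 h (log2 ratio 2.21) and at 120.1 at 0 h, 254 at 4 h and 407 at 24 h (log2 ratio 1.53). The gene cut-3, for a cuticlin of the young larva, was at 31.9 at 0 h, 37.2 at 4 h and 785 at 24 h, at least 8.19-fold higher at 24 h than at 0 h. On the 0 h and 4 h arrays cut-3 was under the floor, so it passed the filter only through its 24 h value. In contrast, noah-1 and hch-1 were already past 2-fold higher at 4 h.

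The members of this list that did not pass 2-fold included sqt-3, a collagen gene of the embryo and larva, and the epidermal regulator gene lin-26. The values of sqt-3 were 20131 at 0 h and 19115 at 24 h (log2 ratio -0.07). For lin-26 they were 3298 at 0 h and 3298 at 24 h (log2 ratio 0.00), an exact tie not read as an unchanged level. Other probe sets of these genes gave higher ratios, 1.92 for sqt-3, which is past 2-fold, and 0.98 for lin-26. Also within 2-fold were let-653 (0.24), fbn-1 (0.64) and dyf-7 (0.77), and egg-6 was the lowest (-0.85). Among 19 regulators of embryonic cell fate, 2 were higher and 0 lower. Higher were nhr-25, whose nuclear receptor acts in the epidermis, at 190.1 at 0 h, 405 at 4 h and 523 at 24 h (log2 ratio 1.32), and ceh-22, a pharyngeal muscle homeobox gene (at least 2.23-fold higher). The pharynx regulator pha-4 (0.94) and tbx-2 (0.87) came next, and the gut regulators end-1 (0.14), end-3 (0.27) and elt-2 (0.02) lay near 0. The heterochronic gene hbl-1, which times events in embryo and larva, was at 379 at 0 h, 1144 at 4 h and 2787 at 24 h (log2 ratio 2.78). A probe set open to cross-hybridisation measured it.

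Cuticle collagen genes had mostly ratios below 0, with a few far higher. Of 97 col genes analysed of 128 on the array, 34 were lower (35.1%) and 3 higher, and 88 had a ratio below 0. Their median was -0.68, -0.06 under scaling on the hybridisation controls, where 19 of 96 were lower, and 0.43 under scaling on the poly-A controls. The higher ones were col-165 at 128 at 0 h, 136 at 4 h and 1816 at 24 h (log2 ratio 3.53), col-74 at 75.3 at 0 h, 58.1 at 4 h and 1015 at 24 h (log2 ratio 3.29) and col-121 at 46.9 at 0 h and 254 at 24 h, at least 2.87-fold higher. At 4 h neither col-165 nor col-74 was past 2-fold. Among the lower ones, col-38 was at 1922 at 0 h, 729 at 4 h and 176 at 24 h (log2 ratio -3.23) and col-80 at 17314 at 0 h and 5161 at 24 h (log2 ratio -1.74).

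Collagens known from body shape mutants went both ways. Of 15, 5 were lower and 2 higher. The gene dpy-5, mutants of which are short, was at 1209 at 0 h, 477 at 4 h and 115 at 24 h (log2 ratio -3.08). The genes sqt-1 (at least 3.32-fold lower) and bli-1 (at least 2.77-fold lower), the latter for struts of the adult cuticle, lay under the floor at 24 h, and bli-2, for the same struts, was at 329 at 0 h and 130.3 at 24 h (log2 ratio -1.15). The gene rol-8 was at 765 at 0 h and 184 at 24 h (log2 ratio -1.88). On the other side were dpy-14 at 163 at 0 h, 657 at 4 h and 2792 at 24 h (log2 ratio 3.86) and dpy-17 at 356 at 0 h, 1077 at 4 h and 4302 at 24 h (log2 ratio 3.48). Of 5 collagens of the annular furrows 1 was higher and 0 lower. The higher one was dpy-7, at 234 at 0 h and 501 at 24 h (log2 ratio 1.00), just past 2-fold. The others lay between -0.47 and 0.26. The markers of the adult cuticle and stage, 8 in all with the yolk genes vit-2 and vit-6, had 0 higher and 3 lower, with 7 below 0 (median -0.70, -0.07 under scaling on the hybridisation controls). The lowest was col-120 at 533 at 0 h, 112 at 4 h and 30.8 at 24 h, at least 5.66-fold lower at 24 h than at 0 h. Besides bli-1 and bli-2 they held rol-6 (-0.99), col-19 (-0.41) and col-119 (-0.10).

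Among the other epidermal lists, 2 of 6 cuticlin genes analysed of 34 were higher, cut-3 and cut-2, the latter at 855 at 0 h, 515 at 4 h and 3085 at 24 h (log2 ratio 1.81). Since cut-3 passed the filter only through its 24 h value, its call is no support for a trend of the list. Without probe sets open to cross-hybridisation 3 cuticlin genes were left, and 0 of them were higher. Of 27 moulting genes 5 were higher and 1 lower. Besides noah-1, noah-2 and nhr-25 the higher ones were mlt-11, for a protease inhibitor, at 239 at 0 h and 1053 at 24 h (log2 ratio 2.00), and mlt-9 (1.01), and the lower one was bli-1. The moulting regulator nhr-23 was at 192 at 0 h and 191 at 24 h (log2 ratio -0.01). The enzymes of collagen processing had 1 of 15 higher, kpc-1 (1.03), and 1 lower, txdc-12.2 (-1.48), while the prolyl hydroxylase gene dpy-18 was at 1036 at 0 h and 581 at 24 h (log2 ratio -0.80) and its partner pdi-2 at 1279 at 0 h and 1342 at 24 h (log2 ratio 0.07). The 10 patched-related genes analysed had none past 2-fold, between -0.40 and 0.53.

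**Figure D2:**
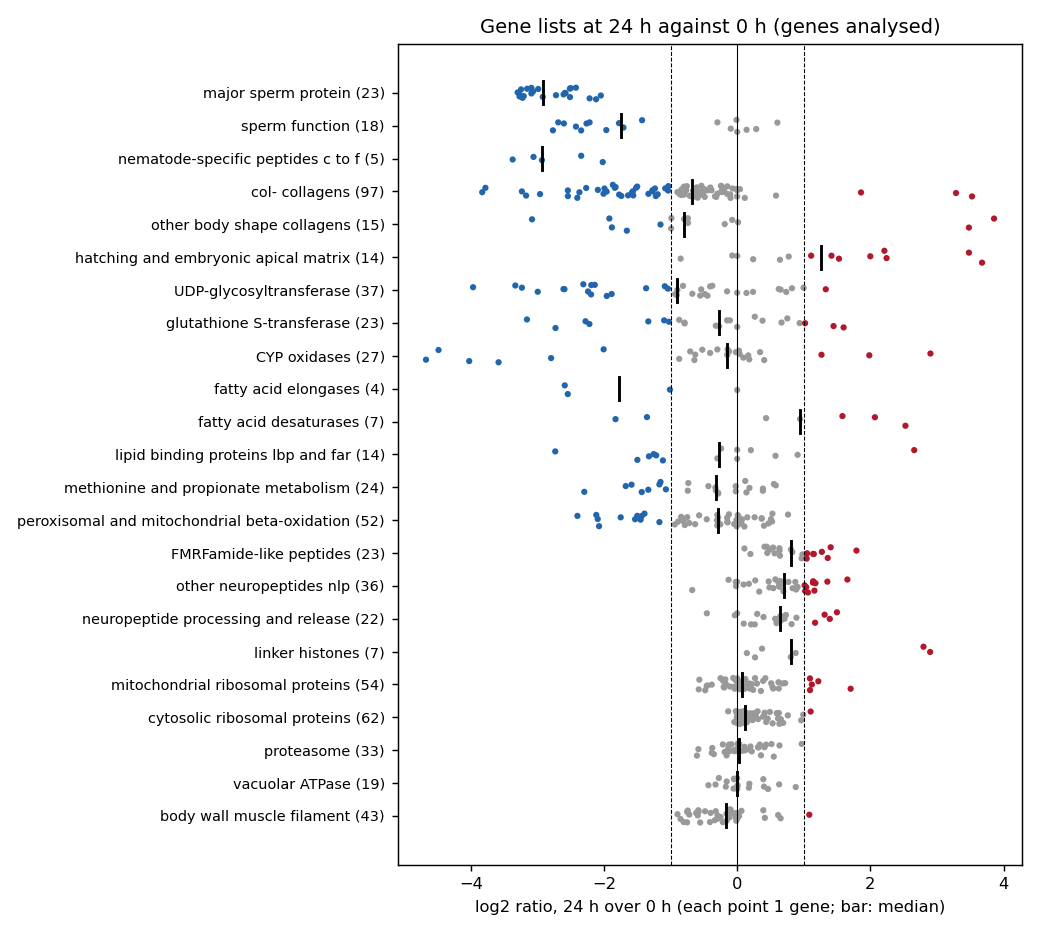
Log2 ratio of 24 h over 0 h for each analysed gene of 23 lists (points, red higher and blue lower by 2-fold, 1 array per time), with the list's median as a bar and the number of genes analysed in brackets. The medians of the sperm lists lie left of the lower line, those of the neuropeptide lists right of 0, and the proteasome and vacuolar ATPase lists have no gene past 2-fold.

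Genes of fatty acid desaturation and elongation differed in both directions. The 7 desaturase genes are described by the fatty acids they make, a division made after their values were seen. The gene fat-3 was at 1736 at 0 h, 3641 at 4 h and 10158 at 24 h (log2 ratio 2.53), fat-4 at 1104 at 0 h, 1970.3 at 4 h and 4731 at 24 h (log2 ratio 2.07) and fat-2 at 2435 at 0 h, 4099 at 4 h and 7347 at 24 h (log2 ratio 1.58), and fat-1 at 2215 at 0 h and 4294 at 24 h (log2 ratio 0.95) came just short. Among the desaturases that act on saturated fatty acids, fat-7 was at 1950.3 at 0 h, 1362 at 4 h and 527 at 24 h (log2 ratio -1.83), fat-5 at 235 at 0 h, 235 at 4 h and 72.2 at 24 h (log2 ratio -1.35) and fat-6, whose protein overlaps in function with FAT-7, at 3102 at 0 h and 4202 at 24 h (log2 ratio 0.43). By the rule 3 desaturase genes were higher and 2 lower.

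Of 4 elongase genes analysed of 8, 3 were lower. The pair that makes branched-chain fatty acids was lowest, elo-5 at 6201 at 0 h, 1730.3 at 4 h and 1036 at 24 h (log2 ratio -2.54) and elo-6 at 4668 at 0 h, 1587 at 4 h and 749 at 24 h (log2 ratio -2.59). The acyl-CoA synthetase gene acs-1, which acts in the same branched-chain pathway, was at 4557 at 0 h, 1276 at 4 h and 1057 at 24 h (log2 ratio -2.07). The gene elo-2 was at 1194 at 0 h and 576 at 24 h (log2 ratio -1.01), and elo-1, for polyunsaturated fatty acids, had the same value of 5662 on all 3 arrays. Such exact ties are frequent in the deposited values, and how they arose is not stated, so the elo-1 values are not read as an unchanged level. The core enzymes of fatty acid synthesis, fasn-1 (-0.31) and pod-2 (-0.23), and their regulator sbp-1 (0.78) did not reach 2-fold.

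In phosphatidylcholine synthesis, pmt-1, for the first methyltransferase of the pathway that starts from phosphoethanolamine, was at 2118 at 0 h, 3873 at 4 h and 7723 at 24 h (log2 ratio 1.85). Its successor pmt-2 was at 7136 at 0 h, 6099 at 4 h and 4618 at 24 h (log2 ratio -0.62). Of other genes of phosphatidylcholine synthesis, cept-1 was at 329 at 0 h, 119.8 at 4 h and 75.5 at 24 h (log2 ratio -1.75). The gene pcyt-1 was at 484 at 0 h and 248 at 24 h (log2 ratio -0.88). For the methyl donor, the S-adenosylmethionine synthetase gene sams-1 was at 6549 at 0 h, 3598 at 4 h and 2930.2 at 24 h (log2 ratio -1.15). So pmt-1 and pmt-2 lay on opposite sides of 0, and among these genes only pmt-1 was higher.

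Carriers and breakdown of fatty acids were lower in part. Of 14 fatty acid binding protein genes analysed of 17, 6 were lower and 1 higher (median -0.27). Under scaling on the hybridisation controls 1 was lower and 3 higher (median 0.38). Of the intracellular carriers, lbp-6 was at 7469 at 0 h, 4081 at 4 h and 2621 at 24 h (log2 ratio -1.50) and lbp-2 at 5965 at 0 h, 4634 at 4 h and 2361 at 24 h (log2 ratio -1.33), and lbp-7 (-1.25), lbp-3 (-1.22) and lbp-5 (-1.12) were lower too. The secreted far proteins, which bind fatty acids and retinol, included the highest and the lowest member, far-7 at 199 at 0 h, 877 at 4 h and 1426 at 24 h (log2 ratio 2.66) and far-3 at 1267 at 0 h, 625 at 4 h and 163 at 24 h (log2 ratio -2.73), while far-1 (0.21) and far-2 (0.00) lay near 0. Of 52 genes of beta-oxidation and related steps 11 were lower (21.2%) and 0 higher, with a median of -0.29 (0.36 under that scaling). They included the acyl-CoA dehydrogenase genes acdh-2 (-2.40), acdh-8 (-2.12) and acdh-9 (-1.53), the thiolase gene kat-1 (-1.45) and hacd-1 (-1.75).

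**Figure D3:**
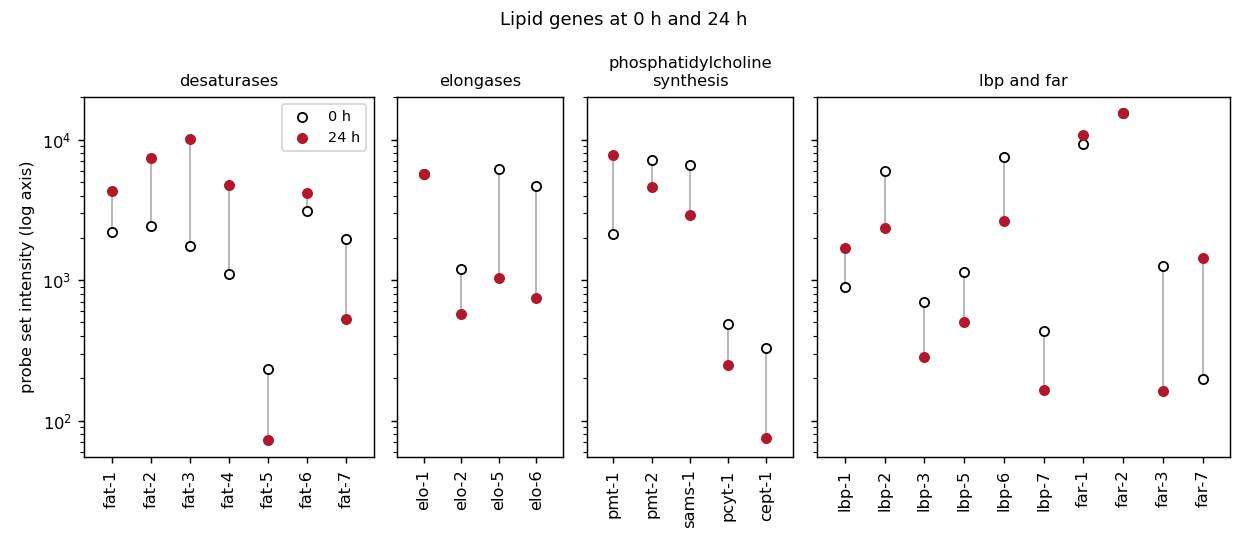
Probe set intensity (vertical, log axis) of genes of lipid metabolism at 0 h (open) and 24 h (filled), 1 array each, with no error bars because there are no replicates. Levels of different probe sets are not comparable with each other. The genes fat-2, fat-3, fat-4, pmt-1 and far-7 lie higher at 24 h and fat-5, fat-7, elo-5, elo-6, cept-1 and far-3 lower.

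Of 24 genes of methionine and propionate metabolism 8 were lower and 0 higher (median -0.32). Under scaling on the hybridisation controls 3 were lower and 3 higher (median 0.31). In worms propionate is broken down by a route that needs cobalamin or by a shunt that does not, a division of the list made after its values were seen. The shunt gene hphd-1, for a hydroxyacid-oxoacid transhydrogenase, was at 6590.4 at 0 h, 3106 at 4 h and 1317 at 24 h (log2 ratio -2.30). The other shunt genes acdh-1, ech-6 and hach-1 were at 10234 at 0 h, 10339.9 at 4 h and 3769 at 24 h (log2 ratio -1.43), at 9007 at 0 h, 5606 at 4 h and 3412 at 24 h (log2 ratio -1.39) and at 1475 at 0 h and 639 at 24 h (log2 ratio -1.17), and the last one, alh-8, was at 4065 at 0 h and 6089 at 24 h (log2 ratio 0.58). The genes of the route that needs the vitamin lay within 2-fold, namely pcca-1 (-0.29), pccb-1 (0.39), mce-1 (0.14), mmcm-1 (-0.29), mmaa-1 (-0.43) and mmab-1 (0.12). Lower genes of methionine and cysteine metabolism were cbl-1 (-1.59), cth-1 (-1.33) and sams-5 (-1.67), and methionine synthase, metr-1, was at 1379 at 0 h and 812 at 24 h (log2 ratio -0.74).

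Central energy metabolism differed little on the deposited scale. Under scaling on the hybridisation controls 22 of 62 respiratory chain and ATP synthase genes were higher and 0 lower. Of 19 glycolysis genes 0 were higher and 0 lower, between -0.95 (pfk-1.1) and 0.89 (aldo-2). Of 26 genes of the tricarboxylic acid cycle 2 were lower, idhg-2 (-1.66) and mdh-2 (-1.15). The respiratory chain and ATP synthase list had 4 of 62 higher (6.45%, near the share of all genes), ndub-10 (1.33), ucr-2.1 (1.20), atp-3 (1.15) and nduv-2 (1.05), and ndua-2 was lower (-1.01). For stored sugars, gyg-1, which primes glycogen, was at 193 at 0 h, 219.6 at 4 h and 659 at 24 h (log2 ratio 1.62), glycogen synthase, gsy-1, at 2302 at 0 h and 977 at 24 h (log2 ratio -1.21), and the trehalase gene tre-5 at 189 at 0 h and 516 at 24 h (log2 ratio 1.31). The glycerol gene gpdh-1, which responds to high salt, was at 402 at 0 h, 155 at 4 h and 185 at 24 h, just short of 2-fold lower. The other probe set of gsy-1 had a ratio of -0.54.

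Neuropeptide genes stood mostly above 0, the nlp genes for epidermal antimicrobial peptides not counted. Of 36 neuropeptide genes outside the FMRFamide-like family analysed of 50, 10 were higher (27.8%) and 0 lower, and 31 had a ratio above 0 (median 0.70). The gene nlp-2 was at 54.1 at 0 h, 88.3 at 4 h and 239 at 24 h, at least 2.71-fold higher at 24 h than at 0 h, nlp-7 at 175 at 0 h, 327 at 4 h and 498 at 24 h (log2 ratio 1.35) and nlp-51 at 567 at 0 h, 828 at 4 h and 1307 at 24 h (log2 ratio 1.16). Just inside the threshold were nlp-9 (1.01), nlp-57 (1.02) and nlp-49 (1.04), and just outside nlp-11 (0.91) and nlp-15 (0.89). The lowest was nlp-36 (-0.68). For nlp-99, at 1.14, the other probe set had a ratio of 0.03. The 23 FMRFamide-like genes had 8 higher and 0 lower, with a median of 0.81.

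Of 22 genes of peptide processing and vesicle release 4 were higher and 0 lower (median 0.65). The convertase gene egl-3 was at 1516 at 0 h and 2300.3 at 24 h (log2 ratio 0.59), its chaperone gene sbt-1 at 1278 at 0 h, 1885 at 4 h and 3669 at 24 h, the carboxypeptidase gene egl-21 at 624 at 0 h, 905 at 4 h and 1689 at 24 h (log2 ratio 1.39) and the amidating enzyme gene pghm-1 at 751 at 0 h, 1061 at 4 h and 1730.4 at 24 h (log2 ratio 1.17). Of the synaptic genes, ric-4, for a membrane fusion protein, was at 278 at 0 h and 739 at 24 h (log2 ratio 1.31), while unc-18 (-0.04), unc-64 (0.21) and snb-1 (0.68, and 1.29 in another probe set) did not pass 2-fold in their brightest probe sets. Genes of classical transmitters had 0 of 12 higher and 1 lower, snf-5 (-1.52), a transporter gene that the nutrient transporter list also holds. Of 18 transmitter receptor genes analysed of 108, glc-1 was higher (2.09) and lgc-34 lower (-1.20). Under scaling on the hybridisation controls the medians of the neuropeptide lists were 1.30 and 1.46.

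Of 27 insulin-like peptide and insulin signalling genes analysed of 37, 4 were higher and 1 lower. The peptide genes ins-22, ins-35 and ins-23 were at 95.9 at 0 h, 217 at 4 h and 479 at 24 h (log2 ratio 2.00), at 95.3 at 0 h, 143 at 4 h and 415 at 24 h (log2 ratio 1.81) and at 119 at 0 h, 224 at 4 h and 358 at 24 h (log2 ratio 1.37), and ins-37 was at least 2.69-fold lower. The kinase gene sgk-1 was at 251 at 0 h and 536 at 24 h (log2 ratio 1.00), and the kinase genes age-1 (0.31) and akt-1 (-0.30) and the transcription factor gene daf-16 (-0.38) did not pass 2-fold. Known targets of the pathway of DAF-16, the transcription factor restrained by insulin signalling, had 8 of 24 higher and 3 lower. The list does not separate targets that DAF-16 raises from those it lowers, so these counts give no direction for the pathway. Among the higher ones were the metallothionein gene mtl-1 at 177 at 0 h, 3165 at 4 h and 2108 at 24 h (log2 ratio 3.36), the CAP-domain gene scl-2 at 541 at 0 h, 8144 at 4 h and 6737 at 24 h (log2 ratio 3.56) and hsp-12.6, described below. The non-coding RNA tts-1 was at 4574 at 0 h, 13413 at 4 h and 18280.1 at 24 h (log2 ratio 1.99), the mitochondrial transhydrogenase gene nnt-1 at 147 at 0 h, 1113 at 4 h and 578 at 24 h (log2 ratio 1.77) and dod-3 at 1813 at 0 h, 6215 at 4 h and 3803 at 24 h (log2 ratio 1.06). Among the lower ones were dod-19 (-1.79), dod-17 (-1.54) and fat-7, and sod-3, a common reporter of the pathway, was among the genes under the filter.

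Small heat shock genes split. The gene hsp-12.6 was at 76.4 at 0 h, 274 at 4 h and 1675 at 24 h (log2 ratio 3.98) and hsp-12.3 at 581 at 0 h, 1072 at 4 h and 1427 at 24 h (log2 ratio 1.25), whereas hsp-17 was at 1173 at 0 h, 456 at 4 h and 405 at 24 h (log2 ratio -1.46). The inducible genes hsp-16.2 (-0.16) and hsp-16.41 (-0.04) had nearly equal values at 0 h and 24 h. The abundant sip-1 had an exact tie (0.00), not read as an unchanged level, and a ratio of 0.26 in another probe set. Of 27 larger chaperone genes 1 was higher, enpl-1, of the endoplasmic reticulum (1.12), though its other probe set gave 0.02. The DNA damage and apoptosis list had nuc-1, for a lysosomal DNase, higher (1.46) and xpa-1 lower (-1.03) of 32 genes. The mitochondrial unfolded protein list had 1 of 19 higher and 2 lower, with hsp-6 at 4284 at 0 h and 4385 at 24 h (log2 ratio 0.03) and hsp-60 at 1535 at 0 h and 1038 at 24 h (log2 ratio -0.55).

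On the deposited scale, families of enzymes that modify foreign compounds had more members lower than higher. Of 37 UDP-glycosyltransferase genes analysed of 64, 16 were lower (43.2%) and 1 higher. Their median was -0.90, -0.23 under scaling on the hybridisation controls and 0.33 on the poly-A controls. Besides the lowest member, ugt-13, at 1959.7 at 0 h, 147 at 4 h and 95.4 at 24 h (log2 ratio -3.97), the lower ones included ugt-62 at 1132 at 0 h, 506 at 4 h and 203 at 24 h (log2 ratio -2.31) and ugt-46 at 1393 at 0 h, 414 at 4 h and 269.6 at 24 h (log2 ratio -2.24). The higher one, ugt-50, had probe sets that disagreed, with ratios from -0.98 to 1.33.

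The 27 cytochrome P450 genes analysed of 73 held 6 lower and 3 higher, and the 6 lower ones all belonged to the cyp-35 subfamily. Beside cyp-35C1, at 9296 at 0 h, 1234 at 4 h and 333 at 24 h (log2 ratio -4.67), cyp-35A5 was at least 6.11-fold lower and cyp-35B2 at 485 at 0 h and 96.7 at 24 h (log2 ratio -2.01). The higher ones were cyp-37B1 at 87.2 at 0 h, 1002 at 4 h and 859 at 24 h (log2 ratio 2.90), cyp-32B1 (at least 3.81-fold higher) and cyp-34A9 at 427 at 0 h and 1072 at 24 h (log2 ratio 1.27). Each of the higher genes belongs to another subfamily. Of 38 short-chain, aldehyde and alcohol dehydrogenase genes 7 were lower and 1 higher, against 2 lower and 8 higher under scaling on the hybridisation controls. The lowest were dhs-23 (at least 5.62-fold lower) and dhs-25 at 1348 at 0 h, 444 at 4 h and 215 at 24 h (log2 ratio -2.48), and the higher one was the alcohol dehydrogenase gene adh-1 at 2208 at 0 h, 6651 at 4 h and 5449 at 24 h (log2 ratio 1.29). Of 31 antioxidant genes 3 were higher and 3 lower, the lower ones being msra-1 (-2.25), nit-1 (-1.85), of a nitrilase family, and gpx-1 (-1.26).

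Gut proteases and transporters had members on both sides, and which side held more depended on the scaling. Of 47 genes in the protease list analysed of 81, 10 were lower and 4 higher, against 2 lower and 9 higher under scaling on the hybridisation controls. The aspartic protease genes asp-12 at 2197 at 0 h, 1981 at 4 h and 519 at 24 h (log2 ratio -2.01) and asp-13 at 4323 at 0 h, 4231 at 4 h and 1253 at 24 h (log2 ratio -1.76) had nearly equal values at 0 h and 4 h, and the cathepsin B-like genes cpr-9 (-1.43), cpr-5 (-1.43) and cpr-8 (-1.50) were lower as well. In the other direction cpr-2 was at 86.2 at 0 h, 156 at 4 h and 1004 at 24 h (log2 ratio 3.13), the aspartic protease gene asp-6 at 6989 at 0 h, 12973 at 4 h and 18469 at 24 h (log2 ratio 1.40) and cpz-2, of the cathepsin Z type, at 1086 at 0 h, 1292 at 4 h and 3160.4 at 24 h (log2 ratio 1.51). The fourth higher gene, cps-6, is in the list by its name and encodes a mitochondrial nuclease (1.78).

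Of 60 transporter genes 9 were lower and 5 higher, against 4 lower and 17 higher under that scaling. The folate transporter gene folt-2 was at 2065 at 0 h, 801 at 4 h and 138 at 24 h (log2 ratio -3.63), hrg-7, a gene of heme signalling that codes for a secreted protease-like protein, at 2596 at 0 h, 794 at 4 h and 341 at 24 h (log2 ratio -2.82), the sugar transporter gene swt-7 at 1491 at 0 h, 711 at 4 h and 433 at 24 h (log2 ratio -1.71) and the nucleoside transporter gene ent-7 was at least 3.28-fold lower. The peptide transporter gene pept-1 was at 959 at 0 h, 181 at 4 h and 441 at 24 h (log2 ratio -1.07). Higher were the aquaporin gene aqp-2 at 2703 at 0 h, 4860.3 at 4 h and 7456 at 24 h (log2 ratio 1.45) and hmit-1.3, of a family of inositol transporters, at 358 at 0 h, 1608 at 4 h and 1154 at 24 h (log2 ratio 1.61). All transporters given here with a 4 h value were already on the same side of their 0 h value at 4 h. The vacuolar ATPase list had no gene past 2-fold among 19, from -0.43 to 0.88. Of 23 brush border and intestinal identity genes 3 were lower, pho-1, act-5 and pept-1, and 1 higher, gem-4 (1.17), with the regulator elt-2 near 0 as given above.

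Uptake and degradation genes, the routes by which cells take in and clear particles, had 3 of 53 higher, near the share of all genes, and 2 lower. The higher ones were genes of autophagy, epg-2 at 271 at 0 h, 608 at 4 h and 926 at 24 h (log2 ratio 1.66), sqst-1 at 1554 at 0 h, 2543 at 4 h and 3751 at 24 h (log2 ratio 1.25) and lgg-1 at 5806 at 0 h, 10963 at 4 h and 11711 at 24 h (log2 ratio 1.01). The lower ones were the endosome genes rme-1 (-1.03) and rme-8 (-1.10), whose other probe sets had ratios of -0.58 and 0.57. The endosomal regulators rab-5 (-0.19), rab-7 (-0.05) and the clathrin gene chc-1 (0.00) lay within 2-fold.

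Families of secreted defence proteins differed in one or both directions. Of 51 C-type lectin genes analysed of 220, 9 were higher and 12 lower. Higher were clec-264 at 104 at 0 h, 197 at 4 h and 539.8 at 24 h (log2 ratio 2.07), clec-76 at 200.2 at 0 h, 697 at 4 h and 932 at 24 h (log2 ratio 2.05) and clec-63 at 4979 at 0 h, 7429 at 4 h and 10518 at 24 h (log2 ratio 1.07), and lower were clec-57 (at least 4.34-fold lower), clec-223 at 466 at 0 h, 614 at 4 h and 138 at 24 h (log2 ratio -1.55) and clec-49 at 397 at 0 h and 145 at 24 h (log2 ratio -1.27). Of 12 saposin-like genes, which code for small membrane-active proteins, 3 were higher and 3 lower, with spp-1 at 4437 at 0 h, 5449 at 4 h and 10348 at 24 h (log2 ratio 1.22) and spp-23 at 1059.6 at 0 h, 196 at 4 h and 224 at 24 h (log2 ratio -2.10). The transthyretin-like list, of small secreted proteins, had 4 higher and 6 lower of 32, and ttr-14 was at 1416 at 0 h, 639 at 4 h and 105 at 24 h (log2 ratio -3.40) while ttr-23 was at 131 at 0 h, 532 at 4 h and 369 at 24 h (log2 ratio 1.30). Of 11 epidermal antimicrobial peptide genes analysed of 18, 0 were higher and 5 lower (median -0.87), and nlp-26 was at 782 at 0 h, 179.8 at 4 h and 135 at 24 h (log2 ratio -2.29). Under scaling on the hybridisation controls 1 of 10 was lower (median -0.21). Probe sets open to cross-hybridisation measured 8 of the 11, so their number does not count independent measurements. Without such probe sets 1 of 3 genes was lower. The fip and fipr genes, induced by fungi or like those that are, had 0 higher and 1 lower of 6, fipr-21 (-1.19). Of 8 lysozyme genes 4 were lower and 1 higher, and of 9 thaumatin and antibacterial factor genes 1 was analysed, abf-5 (0.57). The secreted CAP-domain gene scl-5 was at 361 at 0 h, 931 at 4 h and 2475 at 24 h (log2 ratio 2.67), and the infection response gene irg-8 at 3214 at 0 h, 806 at 4 h and 195 at 24 h (log2 ratio -3.84).

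The pharynx list, of muscle, gland and glutamine-rich proteins, had 7 of 56 higher and 5 lower. Genes of the phat family, named for pharyngeal gland toxin-related proteins, lay on both sides. The gene phat-5 was at 102 at 0 h, 95.3 at 4 h and 941 at 24 h (log2 ratio 2.86), phat-4 at 1548 at 0 h, 727 at 4 h and 352 at 24 h (log2 ratio -2.04) and phat-3 at 264 at 0 h, 255 at 4 h and 110.5 at 24 h (log2 ratio -1.06). Of the glutamine- and asparagine-rich pqn genes, pqn-73 (1.88), pqn-71 (1.87) and pqn-13 (1.77) were higher and pqn-54 (-2.45) and pqn-22 (-1.76) lower. Body wall muscle genes were level on the deposited scale, with 1 of 43 higher, unc-96 (1.08), and 0 lower. The F-box gene mfb-1 was at least 5.96-fold higher at 24 h, with intensities of 66.1 at 0 h, 169.6 at 4 h and 563 at 24 h.

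Regulators and the protein-making machinery had few members past 2-fold on the deposited scale. Of 79 nuclear hormone receptor genes analysed of 259, 5 were higher and 2 lower. The lower ones were nhr-114 at 702 at 0 h, 247 at 4 h and 145 at 24 h (log2 ratio -2.06) and nhr-137 at 355 at 0 h, 123 at 4 h and 99.4 at 24 h (log2 ratio -1.56), and the highest was nhr-18 at 119 at 0 h, 242 at 4 h and 510.0 at 24 h (log2 ratio 1.84). Of 31 homeodomain genes 3 were higher, ceh-22, ceh-32 (1.19) and ceh-34 (1.19), and 0 lower. Linker histones pack DNA between nucleosomes, and their genes hil-1 and hil-7 were at 214 at 0 h, 936 at 4 h and 1804 at 24 h (log2 ratio 2.90) and at 1149 at 0 h, 3135 at 4 h and 8183 at 24 h (log2 ratio 2.80), and the others analysed lay between 0.15 and 0.88. The 3 probe sets of hil-7 had ratios from 2.79 to 2.86.

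Of 62 cytosolic ribosomal protein genes 49 had a ratio above 0, and the ratios ran from -0.14 upward, with 1 higher, rps-7 (median 0.12). Mitochondrial ribosomal protein genes had 5 of 54 higher, mrps-5 at 859 at 0 h, 1487 at 4 h and 2870.4 at 24 h (log2 ratio 1.70) among them, and 0 lower. The proteasome list had none of 33 past 2-fold. Translation factor and tRNA synthetase genes had 3 of 64 higher, with eif-2A at 535 at 0 h, 1149 at 4 h and 1817 at 24 h (log2 ratio 1.71). Under scaling on the hybridisation controls 17 of 62 cytosolic ribosomal, 15 of 54 mitochondrial ribosomal and 23 of 64 translation genes were higher. On the poly-A controls 62 of 62 cytosolic ribosomal protein genes were higher. The 22 genes often used as references had none past 2-fold and ranged from -0.98 to 0.63.

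Among the 30 highest and 30 lowest ratios stood genes that no list held. The highest ratio of all was that of mtre-1, at 49.7 at 0 h, 87.1 at 4 h and 2109 at 24 h, at least 21.4-fold higher at 24 h than at 0 h. The gene cup-16, named for uptake by the scavenger cells of the body cavity, was at 109 at 0 h, 354 at 4 h and 1155 at 24 h (log2 ratio 3.08). Of the 30 highest, 9 have a sequence name only, among them Y110A2AL.4 at 93.8 at 0 h, 338 at 4 h and 2108 at 24 h (log2 ratio 4.09), C32F10.4 at 316 at 0 h, 1184 at 4 h and 4711 at 24 h (log2 ratio 3.77) and F53A9.8 at 2085 at 0 h, 7175 at 4 h and 14389.5 at 24 h (log2 ratio 2.77). The dim genes C54C8.12 and Y97E10AR.1 were at least 7.07-fold higher and at least 8.89-fold higher. On the other side spig-20 was at 5439 at 0 h, 2431 at 4 h and 217 at 24 h (log2 ratio -4.46), and of the 30 lowest 7 have a sequence name only, such as T13F3.6 at 3781 at 0 h, 2979.6 at 4 h and 346 at 24 h (log2 ratio -3.34) and F55G11.2 (at least 9.09-fold lower). Of the genes named in this paragraph, probe sets open to cross-hybridisation measured mtre-1, Y110A2AL.4, C32F10.4, F53A9.8 and T13F3.6. Others among the 30 highest and 30 lowest were cut-3, clec-61, phat-5, cpg-9, nspd-2, cyp-35C1, folt-2 and msd-4, and this list is not complete. Such probe sets measured 34.9% of the higher and 40.8% of the lower genes, against 39% of all. Sequence-name genes were 33.6% of the higher and 35.8% of the lower genes, against 32.6% of those analysed.

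**Figure D4:**
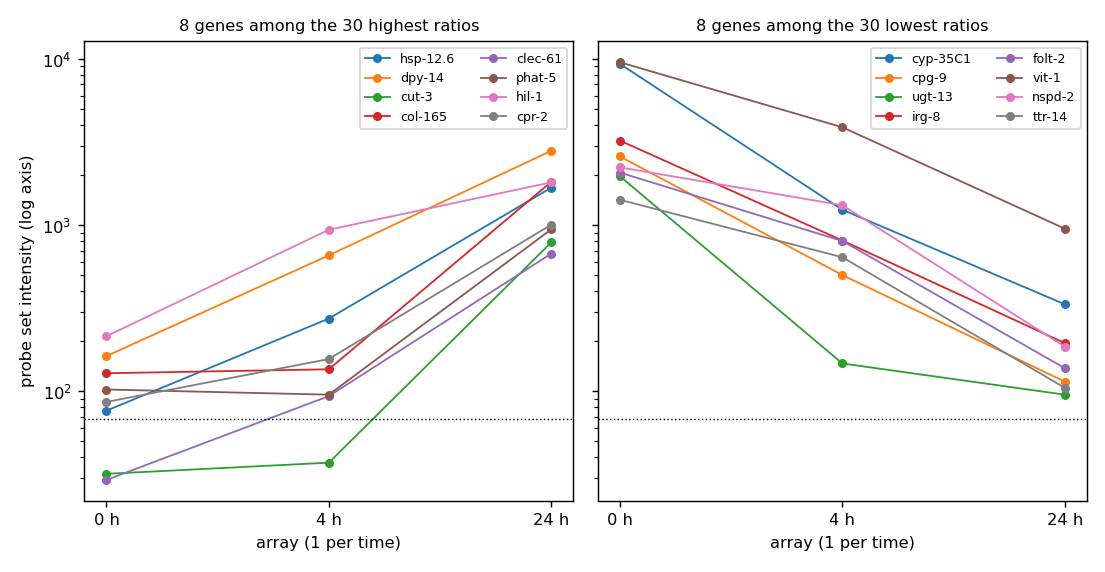
Probe set intensity (vertical, log axis) of 8 genes among the 30 highest (left) and 8 among the 30 lowest ratios (right) on the arrays of 0 h, 4 h and 24 h, drawn at equal spacing, 1 array per time and no error bars. The dotted line is the brightest control for absent transcripts, and cut-3 and clec-61 start below it.

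By place in the genome (order of protein-coding genes in the WBcel235 assembly, which the array files do not name), 4732 pairs of next neighbours were both analysed. In 49 pairs (1.04%) both genes were lower, in 16 (0.338%) both were higher, and in 29 (0.613%) they were opposite. Of all genes analysed 7.96% were lower and 5.32% higher. The share of pairs that unrelated genes would give was not computed, so the pair counts are description only. Runs of 3 neighbours past 2-fold in the same direction occurred 4 times, and all were lower. They were col-39 (-1.50), col-80 (-1.74) and bli-1, 2 cyp-35A genes around K09D9.1 (-1.31), F55G11.2 with mbug-1 (-1.29) and dod-17, and acdh-8 with msp-63 (-3.27) and msp-142 (-3.27). Probe sets open to cross-hybridisation measured msp-63 and msp-142, so these do not count as independent measurements. In the second run cyp-35A3 was at 5005 at 0 h, 1762 at 4 h and 193 at 24 h (log2 ratio -4.49) and cyp-35A4 was at least 13.2-fold lower.

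The stage label was checked on both arrays. The 5 vitellogenin genes held 1 lower and 0 higher, and the lower one, vit-1, was at 9514 at 0 h, 3867 at 4 h and 950.2 at 24 h (log2 ratio -3.28). The yolk protein genes vit-2 (8249 and 10159.5) and vit-6 (17604 and 17269) and the adult collagen genes col-19 (5392 and 4064) and col-119 (23078 and 21519) were far above the floor at 0 h and at 24 h, as adult hermaphrodites are known to express them, whereas col-120 and bli-1 were under it at 24 h. Of 14 male-enriched genes 1 passed the filter, cwp-5 (0.05). Of 9 genes analysed that are known from the dauer larva, a long-lived arrested stage, 4 were higher and 0 lower. Besides hsp-12.6, far-7 and dod-3 the higher ones held fmi-1 at 71.8 at 0 h and 316 at 24 h (log2 ratio 1.75). The gene lea-1, for a desiccation protein, was at 5108 at 0 h and 6504 at 24 h (log2 ratio 0.35), and sip-1 had the exact tie given above. Vulval, uterine and spermathecal genes had 1 of 9 higher, ltd-1 (1.25). The part of the composition of tissues, embryos included, in any result was not tested.

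Repeats within the array give the only measure of spread, and they do not cover differences between cultures or hybridisations. For 1830 genes with at least 2 passing probe sets, the SD of a ratio between the 2 brightest probe sets was 0.467 on the log2 scale. It includes the mean difference between them given below. A ratio of 1 is little more than 2 such SDs. Of 74 such genes called higher 37 were past 2-fold in every probe set, and of 109 called lower 33 were. An opposite sign occurred in 4 of the higher and 17 of the lower ones. Other probe sets were not given above for every named gene. They lay inside 2-fold for cbl-1 (-0.66), mdh-2 (-0.82), asp-6 (0.83), ric-4 (0.97), ceh-32 (0.90) and nlp-9 (0.81), and this list is not complete. Past 3-fold the shares were larger, 11 of 16 and 22 of 31. The brighter probe set of a gene had the lower ratio in 78.6% of genes (mean difference -0.35), so taking the brightest favours lower calls. Single genes near 2-fold measured by 1 probe set, most of those named above, have no such check.

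**Figure D5:**
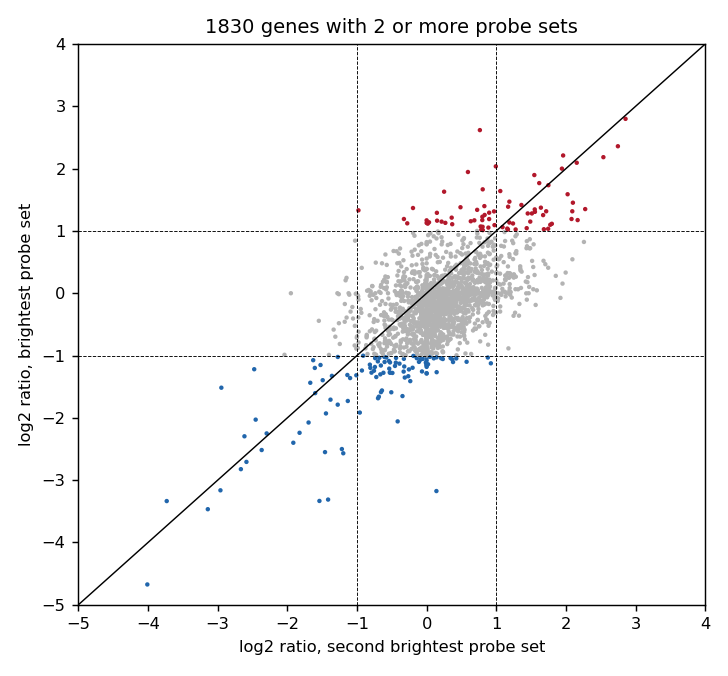
Log2 ratio of 24 h over 0 h from the brightest (vertical) against the second brightest probe set (horizontal) of 1830 genes, with the line of equality and dashed lines at 2-fold. Genes past 2-fold in the brightest probe set are coloured (red higher, blue lower), and many of those near the threshold lie inside 2-fold in the other probe set.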

How the data were processed

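Total RNA of 3 groups was hybridised to Affymetrix arrays, 1 per group. The authors deposited a single table with 1 linear intensity per probe set and array, normalized to judge by the near-equal medians of the arrays. Tools named in the submitters' processing notes are Affymetrix Expression Console 1.1, MAS5 and RMA, in roles not given in the sources used here. In 18.0% of probe sets the 0 h and 24 h values are identical, and how such ties arose is not stated.

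Of 22625 probe sets, 20766 name 1 gene in the array's annotation table, and 20701 of these took their current symbol from the WBcel235 gene table by gene ID. Ratios were taken after adding 32 to each value, in log2. Probe sets with a mean over the 3 arrays at or above the median of all (7.09) were kept, and the brightest per gene was used. A gene low at 0 h passes more easily where it is bright at 24 h, so list counts cover the genes analysed and not every member. Probe sets named _x_ or _s_ can hybridise with other transcripts. A list was described by its counts and median beside the shares of all genes, with no test. The 96 lists, the rule for named genes (the 30 highest and 30 lowest ratios and members of the lists) and the members were chosen with earlier results of these data known. Promoter motifs, planned as a description, were not analysed here, and no sequences are shown. Alternatives were other thresholds, normalizations, pseudocounts, filters and choices of probe set. The calculation was tested on simulated data in which 200 genes differed. Computations used Python 3.11.15, numpy 2.4.6, pandas 2.3.3, statsmodels 0.14.6 and matplotlib 3.10.9.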

Additional observations from a re-analysis of the deposited data

Results flagged for a closer look

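Probe sets outside the gene results also differed between the arrays. Of 182 bright enough probe sets that the annotation gives no gene, 7 were higher at 24 h than in the unexposed array by 2-fold and 6 lower. Of 367 annotated to several genes, 16 were higher and 73 lower. Over all genes analysed the shares were 5.32% higher and 7.96% lower. Only the 73 lower probe sets of several genes exceed these shares, and the other counts lie below them. The probe sets of no gene and of several genes are singled out because they carry signal that no gene result uses.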

How the results depend on the processing

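No paired analysis was possible because each group is a single array. At 1.5-fold 1244 genes were higher and 1495 lower, and at 3-fold 134 and 319. Scaling on the hybridisation controls gave 1896 and 318, and scaling on the poly-A controls, an alternative chosen after seeing the data, 5247 and 213. A filter at the 75th percentile left 4532 genes, with 224 higher and 316 lower. Without _x_ and _s_ probe sets 5690 genes were left, with 325 and 426. Without sperm and collagen genes the counts were 453 and 609. The remaining alternatives gave 316 to 573 higher and 546 to 800 lower genes. With the dimmest probe set of each gene, 422 of the 459 higher and 611 of the 687 lower genes were called the same way. Only 74 of these higher and 109 of these lower genes have at least 2 passing probe sets, so the others could not change. Of those 74 and 109 genes, 37 and 33 were past 2-fold in every probe set. Of lists with a median past 0.5 in size, 256 of 265 recomputed medians kept their direction. The lysozyme list turned to 0.48 without _x_ and _s_ probe sets, over fewer genes, and the coelomocyte list, of 2 genes, to 0.080 under scaling on the hybridisation controls. Of named genes past 2-fold, 2139 of 2155 recomputed ratios kept their direction and 1961 stayed past 2-fold. The totals for lists and for named genes include recomputations that could not differ, so they overstate agreement. Centring on the median changed nothing because the median was 0. Choices of probe set cannot alter a gene with 1 passing probe set. Under scaling on the poly-A controls the sign turned for col- collagens (0.43), other body shape collagens (0.32), UDP-glycosyltransferase (0.33), lysozymes (0.46), epidermal antimicrobial peptides (0.31), adult cuticle and stage (0.44), coelomocyte (0.58), sams-1 (0.035), mdh-2 (0.036), lab-1 (0.011), lbp-5 (0.030), rrf-1 (0.019), rme-8 (0.025), pept-1 (0.073), plk-2 (0.10), alg-5 (0.14), rme-1 (0.15), xpa-1 (0.069), elo-2 (0.14) and ndua-2 (0.17). With the dimmest probe set the sign turned for rme-8 (0.57) and plk-2 (0.21). Without _x_ and _s_ probe sets the sign turned for ugt-50 (-0.98). The promoter motif comparison was not run. Beyond thresholds and fewer genes, the cause was not tested. Signal over background limits 33 higher and 85 lower genes to a bound.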

Other observations

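Probe sets too dim for the gene results, 10060 in number, held 65 higher and 120 lower by 2-fold. In 4 equal groups of genes from the dimmest to the brightest, the share of lower genes was 8.2%, 9.78%, 6.72% and 7.13%, and that of higher genes 5.28%, 6.07%, 5.1% and 4.82%. Other families held single genes with large ratios. The Skp1-related gene skr-5 was at least 2.88-fold higher, upb-1, for an enzyme of pyrimidine breakdown, was at 987 at 0 h, 1548 at 4 h and 5385 at 24 h (log2 ratio 2.41), and the non-coding RNA gene tts-2 was at 497 at 0 h, 345 at 4 h and 2904 at 24 h (log2 ratio 2.47). Of 55 F-box genes analysed of 318, 4 were higher and 2 lower, with fbxa-72 at least 3.75-fold lower and fbxa-24 at 73.6 at 0 h and 338 at 24 h (log2 ratio 1.81). Of 34 gap junction and cell junction genes, 2 were higher, inx-1 (1.08) and unc-9 (1.03), and mup-4, for an epidermal attachment protein, was lower (-1.20), although its other probe set gave -0.20. The genes skr-5, upb-1 and tts-2 were chosen after their values were seen.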
